A study of Mus musculus with 6 samples.

Results

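The Pax genes encode the paired-box transcription factors, and their transcripts were measured here in N2A, an established mouse neuroblastoma cell line, after knockdown of one of them, Pax6. The family was taken by gene symbol as Pax1, Pax2, Pax3, Pax4, Pax5, Pax6, Pax7, Pax8 and Pax9. Each of the 9 genes had 1 probe set on the array that carried its symbol and no other, out of 19938 genes with such a probe set. The study transfected N2A cells with a short hairpin RNA vector against Pax6 or with a non-targeting vector, and RNA from whole wells was taken 3 days later. There were 3 control and 3 Pax6 knockdown arrays, called biological replicates in the methods of the study, so the p-values cover the spread between these cultures. All 6 samples are of the same line, the labels name no other difference between the groups, and every culture received 1.5 µg of a hairpin vector. The transfection was transient, and the share of cells that took up the vector was not given in the sources used here. A level below is therefore an average over cells with and without it, and fewer expressing cells cannot be told apart from less RNA per cell.

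All PAX proteins bind DNA through a paired domain, which the paired box encodes. The family is usually divided by sequence into the pairs PAX1 and PAX9, PAX3 and PAX7, and PAX4 and PAX6, and the trio PAX2, PAX5 and PAX8. PAX3, PAX4, PAX6 and PAX7 also carry a full homeodomain. Each acts mainly in development: PAX6 in brain, eye and endocrine pancreas, PAX4 in insulin-producing cells, PAX2 and PAX8 in kidney, PAX8 also in thyroid, PAX5 in B lymphocytes and midbrain, PAX3 and PAX7 in neural crest and muscle stem cells, and PAX1 and PAX9 in the vertebral column, thymus and teeth. Members of one subfamily can stand in for each other in some tissues, so it was asked whether any paralog was present in N2A cells and whether any rose when Pax6 was reduced.

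The oligonucleotide list of the study held 1 hairpin against Pax6, named Pax6sh896, and its parts are shown because it is the agent meant to lower Pax6. The labels of the arrays do not name the hairpin that was used. The target shown is the reverse complement of the antisense arm and was not read from the Pax6 transcript. Capitals in the antisense arm mark bases 2 to 8, the seed of a small RNA that is loaded in this orientation. The sense arm has 18 bases against 19 in the target. Set against target bases 2 to 19 counted from the target's 5′ end, it carries the difference G19A. Which arm matches the Pax6 transcript at that base was not checked.
Target in the Pax6 transcript: gtctgtaccaacgataacg
Antisense arm: cGTTATCGttggtacagac
Sense arm: tctgtaccaacgataaca
No transcript sequences were used here, so the target was not placed in the Pax6 transcript. The number of matched bases in the other Pax transcripts was not counted either.

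Values are the deposited log2 summaries from robust multi-array averaging (RMA), which corrects background, brings the arrays to like distributions and gives 1 value per probe set. Array medians over all probe sets lay between 7.49 and 7.59. A gene was tested if it lay above the median of its array on at least 3 of the 6 arrays, which 11424 genes did. Every difference is knockdown minus control on the log2 scale, from limma, with the standard error (SE), and a gene is called at a false discovery rate (FDR) of 10% after Benjamini-Hochberg adjustment over all tested genes. The labelled cell type was borne by its markers: all 7 sympathetic neuroblast genes that could be matched lay above the array median on all 6 arrays, with mean log2 values from 8.47 (Th, tyrosine hydroxylase) to 12.3 (Hand2). Of these 7 genes 0 rose and 2 fell, in a tested set where 2.79% of genes were called higher and 3.88% lower. Dbh (dopamine beta-hydroxylase) had a difference of -1.08 (SE 0.077, adjusted p = 0.00163) and stayed called in all settings tried. The homeobox factor gene Isl1 had one of -0.35 (SE 0.076, adjusted p = 0.0571), a call lost without control replicate 1, 2 or 3 (0.171, 0.222 and 0.126), without knockdown replicate 3 (0.189), without the filter (0.133), with the variance filter (0.306) and with all probe sets fitted (0.324). The median difference of the 7 genes was -0.21. Of the 5 not called, Phox2a and Gata2 differed by 0.05 and 0.01, and Hand2, Gata3 and Th by -0.07, -0.21 and -0.22. The summed linear level of the 7 genes, written on the log2 scale, was 13.84 to 13.904 in control and 13.69 to 13.76 in knockdown arrays, so the groups did not overlap, and the part of this in the Pax values was not tested. Such a sum weighs bright probe sets most. Of single tested genes, 11.7% had knockdown arrays wholly below the control arrays.

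Pax6 was the member that fell. Its log2 values were 8.79, 8.82 and 8.81 in control replicates 1, 2 and 3 and 8.48, 8.30 and 8.50 in knockdown replicates 1, 2 and 3. The control arrays lay close together, knockdown replicate 2 was the lowest array, and the groups did not overlap. The control mean was 8.81 ± 0.017 and the knockdown mean 8.43 ± 0.11 (SD, n = 3 each), so the SD was larger in the knockdown group. Knockdown minus control came to -0.38 with an SE of 0.071 and an adjusted p of 0.0382 in limma, and the 95% confidence interval ran from -0.54 to -0.22. As a linear signal that is a change of -23.2%, with an interval from -31.4% to -13.9%. Within replicate numbers the differences were -0.31, -0.52 and -0.31.

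Set against other genes, the fall of Pax6 was of moderate size. Among the 443 genes called lower, 190 had a larger fall, and 1.82% of the 11424 tested genes had a difference at or below that of Pax6. On its arrays the Pax6 probe set stood above 64.3% to 65.5% of all probe sets in the control group and above 60.1% to 61.6% in the knockdown group. This rank sets different probe sets side by side and does not show how far Pax6 lay above its own background. RMA is known to compress differences toward the low end of the range. Protein was not measured on the arrays. The study reported a larger fall, of PAX6 protein on a Western blot, after transfection of a hairpin vector against Pax6. Protein and array signal are unlike measures. The study also quantified Pax6 transcript by quantitative RT-PCR after such a transfection, which is a closer measure to the array signal. That result is shown in a figure of the study and was not compared with the array difference here.

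The sign of the Pax6 difference held in every setting tried, but its call did not. The sign was largely fixed in advance. Filters, probe set averaging, the replicate block, the eBayes options and the fit of all probe sets leave the estimate at -0.38. As the groups did not overlap, leaving out 1 array could not turn the sign. When control replicate 1, 2 or 3 or knockdown replicate 3 was left out, the adjusted p was 0.120, 0.180, 0.141 and 0.126. It was 0.231 when only the more variable genes were kept, and 0.259 when all 35556 probe sets were fitted together.

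**Figure D1:**
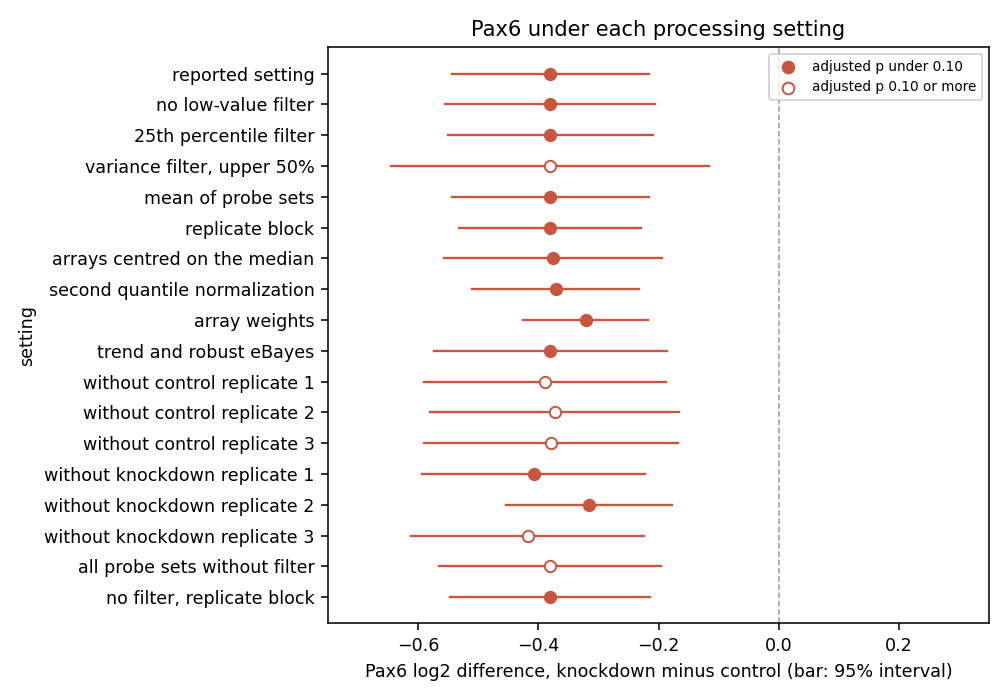
Pax6 log2 difference, knockdown minus control (horizontal axis), with its 95% confidence interval under the reported setting and 17 others (vertical axis). Filled circles passed 10% FDR and open circles did not. All 18 estimates lie between -0.42 and -0.32 and every interval stays below 0, while 6 circles are open. Several settings leave the estimate unchanged by design, so the estimates are not separate evidence on its sign.

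Pax4 is the gene of the same subfamily as Pax6. Its values hardly moved between arrays, at 7.30, 7.29 and 7.33 in control replicates 1, 2 and 3 and 7.33, 7.28 and 7.27 in knockdown replicates 1, 2 and 3. The groups overlapped throughout. Pax4 lay below the array median on all 6 arrays and so was not in the tested set. In the fit of all 19938 genes without the filter its difference was -0.01 (SE 0.062, 95% confidence interval -0.15 to 0.13, adjusted p = 0.991). The upper end of that interval is a signal 9.52% higher. Among the 9 genes its interval was the narrowest.

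Pax2, Pax5 and Pax8 form the trio that lacks a complete homeodomain. Pax5, the B-lineage factor gene, had the largest positive difference of the family. Its values were 7.88, 8.17 and 7.998 in control replicates 1, 2 and 3 and 8.09, 8.24 and 8.24 in knockdown replicates 1, 2 and 3. Control replicate 2 lay above knockdown replicate 1, so the groups overlapped by that pair of arrays. The difference was 0.18, with an SE of 0.088, a 95% confidence interval from -0.03 to 0.38 and an adjusted p of 0.336 in limma, and 10.3% of tested genes had a difference at least as large. Each knockdown array was above the control array of its own number, by 0.21, 0.07 and 0.25. With the replicate number as a block the 95% confidence interval of Pax5 ran from 0.04 to 0.32 and the adjusted p was 0.106 in limma, while 17.9% of tested genes were called in that fit. It passed in 1 of 17 other settings, with array weights (adjusted p = 0.0487), where 37.1% of all tested genes were called.

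Pax2, which acts in kidney, optic stalk and midbrain, was at 7.37, 7.41 and 7.54 in the control replicates and at 7.46, 7.58 and 7.26 in the knockdown replicates. The knockdown arrays held both the highest and the lowest of the 6 values. The difference was 0.00 within rounding, with a 95% confidence interval from -0.22 to 0.22 (limma without the filter, adjusted p = 0.999). Pax8, the thyroid and kidney factor gene, was at 7.18, 7.12 and 7.17 in control and 7.09, 7.24 and 7.09 in knockdown replicates. Its difference was -0.02 (95% confidence interval -0.18 to 0.15, adjusted p = 0.987 in the same fit). Pax2 was above the median on 1 of the 6 arrays and Pax8 on 0, so neither entered the tested set.

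Pax3 and Pax7, the pair of neural crest and muscle stem cells, differed with opposite signs and neither difference passed. Pax3 was at 7.35, 7.33 and 7.36 in control replicates 1, 2 and 3 and at 7.42, 7.12 and 7.14 in knockdown replicates 1, 2 and 3. Knockdown replicates 2 and 3 lay below all control arrays and knockdown replicate 1 lay above them. The difference was -0.12 (SE 0.091, 95% confidence interval -0.33 to 0.09, adjusted p = 0.771 without the filter in limma). Pax7 was at 7.79, 7.52 and 7.64 in control and 7.69, 7.79 and 7.69 in knockdown replicates, with knockdown replicate 2 only just above control replicate 1. It was in the tested set, with a difference of 0.07 (SE 0.081), a 95% confidence interval from -0.11 to 0.26 and an adjusted p of 0.713 in limma.

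Pax1 and Pax9, which pattern the sclerotome that builds the vertebrae, likewise showed overlapping groups. Pax1 was at 7.70, 7.60 and 7.84 in control replicates 1, 2 and 3 and at 7.70, 7.95 and 7.88 in knockdown replicates 1, 2 and 3. Its difference was 0.13 (SE 0.089), with a 95% confidence interval from -0.07 to 0.34 and an adjusted p of 0.496 in limma. Most of it came from replicate 2, where the knockdown array was higher by 0.35, against 0.01 and 0.04 in the others. Pax9 was at 7.04, 7.06 and 7.19 in control and 6.91, 7.34 and 6.93 in knockdown replicates, the widest spread of the family within a group (SD 0.24, n = 3). Its difference was -0.04 (SE 0.12, 95% confidence interval -0.31 to 0.24, adjusted p = 0.986 without the filter). Knockdown replicate 2 was the array on which Pax1, Pax2, Pax7, Pax8 and Pax9 each had their highest value, and it was also the array with the highest 95th percentile of olfactory and vomeronasal receptor probe sets, at 7.04 against 6.84 to 6.95 on the others. The part of that shift in the Pax values was not tested.

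**Figure D2:**
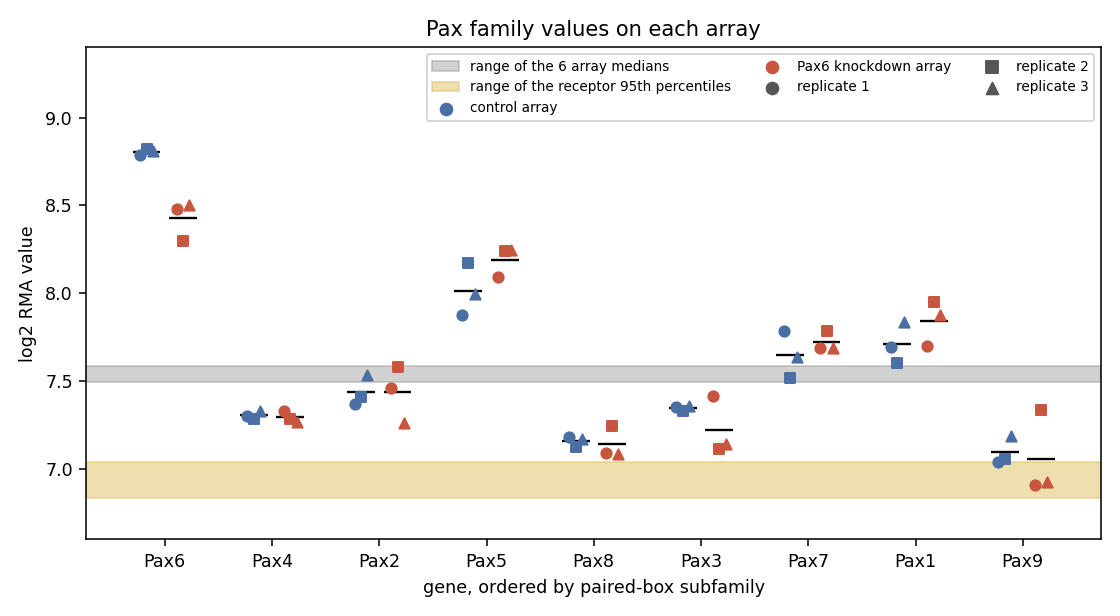
Log2 RMA value (vertical axis) of each of the 9 Pax genes (horizontal axis) on every array, with control arrays in blue, Pax6 knockdown arrays in red, a marker shape per replicate number and black lines for group means. Pax6 is the gene whose red and blue points do not overlap (8.30 to 8.50 against 8.79 to 8.82), and 5 genes lie mostly under the grey band of array medians (7.49 to 7.59).

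Across the family, 4 of 9 genes entered the tested set, and of these 1 was called lower and 0 higher at 10% FDR by limma. In the whole tested set 6.67% of genes were called, 3.88% lower and 2.79% higher. For the 8 paralogs, 0 were called, with or without the filter, and 1.23% of all 19938 genes were called at 10% FDR without it. In that unpaired fit 0 of the 8 had an unadjusted p under 0.05. With the replicate block and no filter 1 of the 8, Pax5, had an unadjusted p under 0.05. Its interval ran from 0.02 to 0.33 and its adjusted p was 0.250 in limma, while 4.24% of all genes were called at 10% FDR there. The share of all genes with an unadjusted p under 0.05 was not counted in either fit. The differences of the 8 paralogs were split, with 3 above and 5 below 0. The groups failed to overlap for Pax6 and for 0 of the 8 paralogs, while in the tested set the knockdown arrays lay wholly below the control arrays for 11.7% of genes and wholly above for 13.9%. With 3 arrays per group, a rise of 1 paralog smaller than its interval allows could not be seen. In the fit without the filter the upper ends of the intervals ran from a signal 6.11% higher for Pax3 and 9.52% higher for Pax4 to 27.0% higher for Pax1 and 30.8% higher for Pax5.

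**Figure D3:**
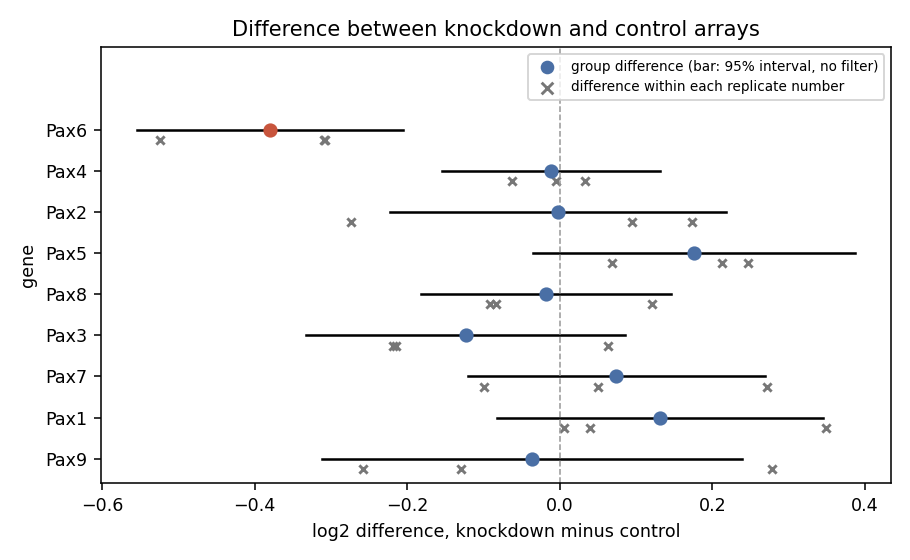
Log2 difference, knockdown minus control (horizontal axis), for the 9 Pax genes (vertical axis), with 95% confidence intervals from limma on all genes without the filter; grey crosses are the differences within each replicate number. The interval of Pax6 (-0.55 to -0.21) lies below 0, and all 8 paralog intervals include 0 in this unpaired fit, whereas with the replicate block that of Pax5 (0.02 to 0.33) does not.

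Whether any paralog was present at all could only be described, since RMA values carry no detection call and probe sets of different genes differ in brightness at the same RNA amount. The 1205 probe sets of olfactory and vomeronasal receptor genes, which a neuroblastoma line is not known to use, served as a silent reference, with medians between 5.32 and 5.56 and 95th percentiles between 6.84 and 7.04 on the 6 arrays. All 9 Pax genes lay above the 95th percentile on all 6 arrays. With the 99th percentile as the reference only Pax5 and Pax6 did so, and 4 genes (Pax1, Pax5, Pax6 and Pax7) lay above the array median on all 6.

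The receptor reference was, however, passed by many marker genes of other lineages. From 6 lists of markers of other lineages in which PAX factors act, 31 genes could be matched, and 16 of them were above the receptor 95th percentile on all 6 arrays, 6 above the 99th percentile and 7 above the array median. The melanocyte and neural crest list gave 4 of the 16, 2 of the 6 and 2 of the 7. Whether the marker genes were silent in N2A was not tested. Mean log2 values of the 31 genes ran from 5.27 to 8.62 with a median of 7.10. For that reason a place above the receptor reference is given as a value and not used as a detection call. Of the 5 B-lymphocyte genes that go with Pax5, 0 lay above the array median on all arrays and 1 above the receptor 95th percentile. Mean levels were 5.27 for Ms4a1 (a B-cell surface antigen), 5.46 for Cd79a and 7.204 for Cd79b (the B-cell receptor signalling chains), 5.75 for Ebf1 (a B-lineage transcription factor) and 6.34 for the adaptor gene Blnk. Of the 6 muscle genes 2 lay above the array median on all arrays, Des (desmin) at 8.21 and Cdh15 (M-cadherin) at 8.08, and 4 above the receptor 95th percentile. The muscle factor genes Myod1, Myog, Myf6 and Myf5 were at 7.45, 7.17, 6.86 and 5.62.

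**Figure D4:**
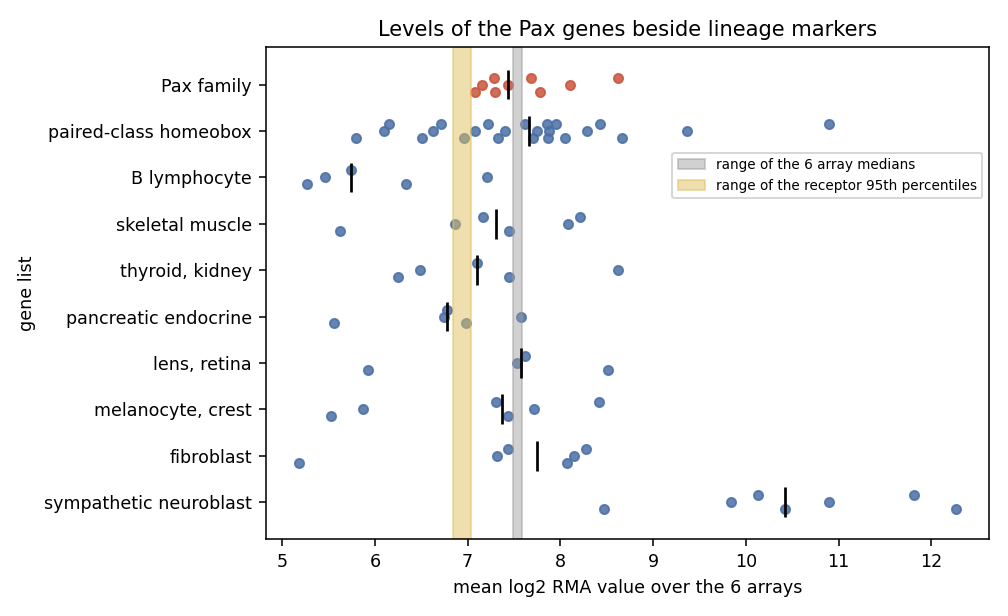
Mean log2 RMA value over the 6 arrays (horizontal axis) of the Pax genes (red) and of genes in 9 other lists (blue, 1 list per row); black ticks are list medians. The Pax genes run from 7.08 to 8.62, inside the range of the markers of other lineages, while the sympathetic neuroblast genes run from 8.47 to 12.3. Levels of different probe sets are no ranking of RNA amounts.

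The genes whose 6 values ran most nearly in parallel with those of Pax6 were found by the root mean square distance after each gene was centred on its own mean. This is a description over 6 arrays that share the group difference, and it has no test. The 5 nearest of the 11424 tested genes were Tmc7, a transmembrane channel-like gene (0.022), the neuronal calcium-binding protein gene Necab1 (0.023), the cell death inhibitor gene Bcl2 (0.025), the protein phosphatase 2A subunit gene Ppp2r2b (0.028) and the extracellular matrix gene Ecm1 (0.031). Necab1 was at 10.0, 10.1 and 10.0 in control replicates 1, 2 and 3 and at 9.68, 9.54 and 9.72 in knockdown replicates 1, 2 and 3. All 5 had their lowest value on knockdown replicate 2, as Pax6 did, and their differences lay between -0.41 and -0.36. Both traits follow from the way these genes were picked. The median distance over tested genes was 0.22. Among the paralogs the distance ran from 0.16 for Pax3 to 0.30 for Pax5.

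Genes outside the family that share its homeobox type were examined next. Of 31 paired-class homeobox genes without a paired box, 24 could be matched, 13 were tested, 1 rose, 1 fell and 11 did not pass, beside 6.67% of all tested genes called in either direction. Otx1, a forebrain and sense-organ factor gene, rose by 0.27 (SE 0.057, adjusted p = 0.0533), with values of 9.18, 9.27 and 9.24 in control and 9.48, 9.49 and 9.52 in knockdown arrays. Shox2, a limb and heart pacemaker factor gene, fell by 0.37 (SE 0.092, adjusted p = 0.0795), from 8.27, 7.95 and 7.97 to 7.73, 7.68 and 7.67. In both genes the groups did not overlap, and control replicate 1 stood apart for Shox2. Across all tested genes the knockdown arrays lay wholly above the control arrays for 13.9% and wholly below for 11.7%. The median difference of the 13 genes was 0.05, against 0.02 over all tested genes. Otx1 and Shox2 lost their calls when any 1 of the control arrays or knockdown replicate 3 was left out (adjusted p 0.145 to 0.252), and Shox2 also without knockdown replicate 1 (0.113).

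In many tissues PAX factors work with homeobox proteins of the sine oculis family, EYA phosphatase co-activators and DACH co-repressors. Of 12 such genes 11 could be matched and 6 were tested. Eya3 rose by 0.22 (SE 0.058, adjusted p = 0.0891), from 10.9, 10.9 and 10.9 to 11.2, 11.1 and 11.1, and the other 5 did not pass, again beside 6.67% of all tested genes. The list median was 0.09. Without 1 of the control arrays or knockdown replicate 1 or 3 the adjusted p of Eya3 was 0.161 to 0.296, and it was 0.121 after centring each array on its median.

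Of 22 described protein partners and regulators of PAX factors, 21 could be matched, 19 were tested, 1 rose, 1 fell and 17 did not pass, beside the same 6.67%, and the list median was 0.02. Smarcc2, whose product BAF170 is a subunit of the BAF chromatin remodelling complex, fell by 0.25 (SE 0.066, adjusted p = 0.0891), from 10.7, 10.7 and 10.6 to 10.5, 10.4 and 10.4. Rb1, the retinoblastoma protein gene, rose by 0.31 (SE 0.085, adjusted p = 0.0947), from 9.20, 9.39 and 9.401 to 9.66, 9.52 and 9.75. The groups did not overlap in either gene, beside 13.9% of all tested genes wholly above and 11.7% wholly below. The co-repressor gene Tle1 had a difference of 0.35 that did not pass (adjusted p = 0.197 in limma) and is named because it was the largest of the list. It was called with the replicate block (0.0368), with array weights (0.0175) and without knockdown replicate 2 (0.0532). In those fits 17.9%, 37.1% and 11.2% of all tested genes were called. The PTIP gene Paxip1 had a difference of 0.00 within rounding and the PAX3- and PAX7-binding protein gene Paxbp1 one of -0.01. Both calls were lost after centring (0.117 for Smarcc2 and 0.102 for Rb1) and without any 1 of the control arrays or knockdown replicate 3 (adjusted p 0.183 to 0.314), Rb1 also without knockdown replicate 1 (0.159) and Smarcc2 also without knockdown replicate 2 (0.103).

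**Figure D5:**
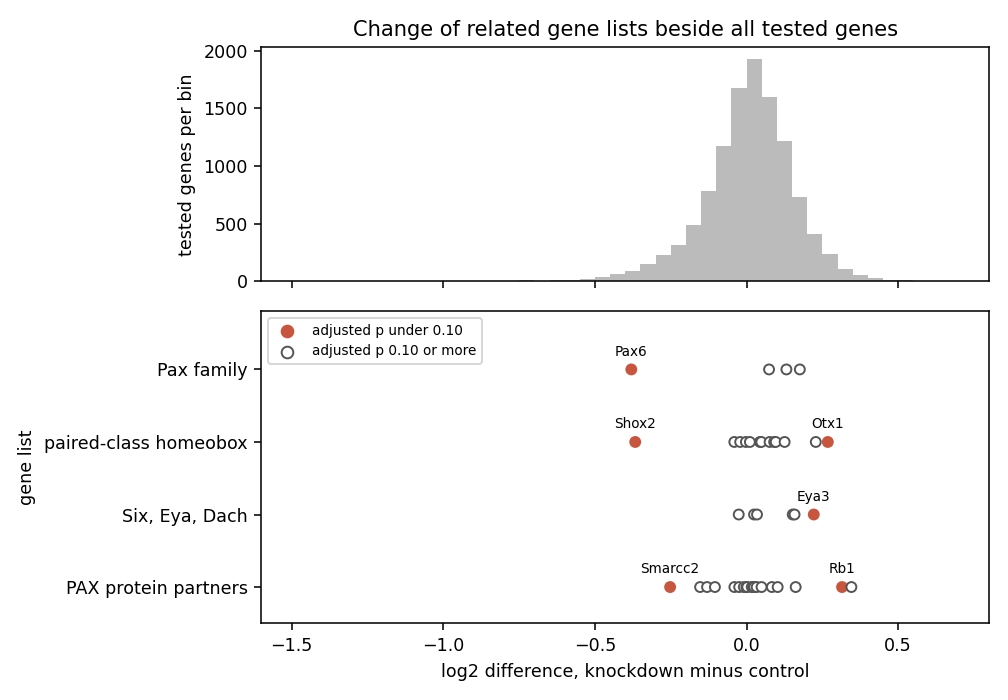
Upper panel, number of tested genes per 0.05-wide bin of log2 difference; lower panel, the tested genes of 4 lists on the same horizontal axis (log2 difference, knockdown minus control), filled where the adjusted p passed 10% FDR. Pax6 (-0.38) and Shox2 (-0.37) lie furthest to the left, Otx1 (0.27), Eya3 (0.22) and Rb1 (0.31) passed to the right, and the other 3 tested Pax genes (0.07 to 0.18) lie within the bulk.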

How the data were processed

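RNA of 6 N2A cultures (200 ng each) was hybridised to Affymetrix Mouse Gene 1.0 ST arrays. The authors corrected background by RMA, quantile normalized the arrays and deposited log2 values per probe set, and removed consistently low genes before testing, at a height not given in the sources used here. That scaling step hides a change in total RNA, and the number of arrays limits the precision. The table held 35556 probe sets and 0 missing values, and at most 20 values were identical between any 2 arrays. Symbols came from the platform annotation: 21789 probe sets had 1 symbol, 1621 several and 12146 none, and 21698 of the 1-symbol probe sets matched a RefSeq table of assembly GRCm38.p6. For each gene the probe set with the highest mean was kept (19938 genes). Genes were tested above each array's median on at least 3 arrays (11424 genes) with limma 3.58.1 in R 4.3.3 (lmFit, eBayes, two-sided, Benjamini-Hochberg), knockdown against control, called at the study's 10% FDR. Members below the filter were given from the same fit without it. The script was tested on simulated data.

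The members, lists and tests were chosen with earlier results of these data known. The rule for named genes took the 9 members, up to 6 called genes of each list and the 5 genes nearest to Pax6. Tle1, Tshr and Dach2 were chosen after their values were seen. Of the marker lists, those of fibroblast genes and of melanocyte and neural crest genes are given in the closing section.

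Groups share replicate numbers, whose meaning the labels leave unexplained. Deviations from group means correlated at 0.57, 0.32 and 0.23 for numbers 1, 2 and 3 over tested genes, all above 0.1, so the numbers were taken as pairs, a pairing seen in the data and not stated in the design. Control replicate 3 and knockdown replicate 2 also correlated, at 0.18. The reported fit did not use the pairing by number, and the replicate block was run as an alternative. Other alternatives were 4 filters, the mean of probe sets, median centring, a second quantile normalization, array weights, eBayes with trend and robust options, and each array left out. A fit of all probe sets, and the block without a filter, were added after seeing the data.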

Additional observations from a re-analysis of the deposited data

How the results depend on the processing

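Leaving out 1 array at a time moved the Pax6 difference between -0.42 and -0.32, the number of Pax members called between 0 and 1, and the number of paralogs called between 0 and 0. The called paired-class homeobox genes (2) then numbered 0 to 2, sine oculis, Eya and Dach genes (1) 0 to 1, and protein partners (2) 0 to 2. Pax6 kept -0.38 but lost its call with the variance filter and with all probe sets fitted, each of which left 0 members called. The 75th percentile filter removed Pax6, so 0 members were called there too. With array weights, whose estimate did not fully converge, 2 members were called, 1 of them a paralog, beside 4, 3 and 3 genes of the 3 lists.

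Paired-class calls were 0 with no filter, the 75th percentile filter, the variance filter or all probe sets, and 1 with the 25th percentile filter. Sine oculis, Eya and Dach calls were 0 with no filter, the 25th percentile filter, the variance filter, centred arrays or all probe sets. Partner calls were 0 in those same 5 settings, and 1 with the 75th percentile filter or with the block and no filter. Members above the silent reference numbered 9, or 2 with the 99th percentile and 4 with the array median.

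With the replicate block the Pax6 difference was -0.38 (limma adjusted p = 0.0184) and 1 member was called, and the pairing changed no call among the members. Among the list genes the block added calls for Tle1 (0.0368), Esx1 (0.0859), Gata3 (0.0703) and Cdh15 (0.0752). Over all tested genes the block called 2042 against 762; no filter called 245, the 25th percentile filter 389, the variance filter 127, second quantile normalization 1383 and array weights 4239. Without control replicates 1, 2 and 3 the counts were 185, 51 and 159, without knockdown replicates 2 and 3 they were 1285 and 56. Pax1, Pax5 and Pax7 kept a positive sign in every setting that held them, but 1 array moved their size: Pax7 (0.07) was 0.01 without control replicate 2 and 0.14 without control replicate 1, Pax1 (0.13) was 0.08 without control replicate 2 or knockdown replicate 2 and 0.202 without knockdown replicate 1, and Pax5 (0.18) was 0.11 without control replicate 1. For Pax1, Pax5 and Pax7 too, settings that change only the filter, the eBayes options or the replicate block leave the estimate unchanged. Pax genes below the array median lie where RMA compresses differences most, which limits what a small change there can show.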

Other observations

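Of the 6 melanocyte and neural crest genes, 2 were tested and 1 was called: Mitf, a pigment-cell master factor gene, fell by 0.45 (SE 0.064, limma adjusted p = 0.0193), from 8.64, 8.55 and 8.72 in control to 8.19, 8.19 and 8.18 in knockdown arrays. Its adjusted p was 0.117 without knockdown replicate 3, 0.112 with the variance filter and 0.186 with all probe sets fitted, and Mitf was not tested when probe sets were averaged. The pigment enzyme genes Dct and Tyr were at 5.88 and 5.53, and their differences were 0.04 and 0.06. The rest of the list lay higher. Sox10, the other tested gene, was at 7.71 with a difference of -0.03 (limma adjusted p = 0.905). Pmel and Mlana were at 7.44 and 7.31, each with a difference of -0.02. Of 6 fibroblast genes 3 were tested, and 0 of them rose or fell.

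In the thyroid and kidney list, Tshr, the thyrotropin receptor gene, lay below the filter with values of 6.47, 6.54 and 6.51 in control and 6.02, 6.14 and 5.84 in knockdown arrays. Chosen after its values were seen, it had a difference of -0.51 (SE 0.088) and an adjusted p of 0.0622 in limma without the filter. In that fit 1.23% of all genes were called. All its values lay below the receptor 95th percentiles of 6.84 to 7.04. The other matched genes of the list did not share its fall: Umod differed by 0.20 (adjusted p = 0.444), Foxe1 by 0.06, Nphs1 by -0.02 and Tg by -0.09. Pax8, a factor of thyroid cells, differed by -0.02 in the same fit. Dach2, likewise below the filter and chosen after its values were seen, was at 6.75, 6.61 and 6.603 in control and 7.01, 6.86 and 7.05 in knockdown arrays, with a difference of 0.32 (SE 0.080, adjusted p = 0.158 in the same fit).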
